A study of Mus musculus with 12 samples.

Results

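In mice lacking the upstream regulatory element (URE) of Spi1, 681 of 121336 accessible regions (0.561%) met the limits set below for regions newly open in both stem and progenitor cells (LSK) and granulocyte-monocyte progenitors (GMP). These regions were chosen by their measured values. Each count was divided by the sum of its library and multiplied by 1000000 (CPM), and the CPM were averaged per group and raised by 0.25. A region was chosen when the ratio of WT-GMP to WT-LSK was between 0.5 and 2, when URE-LSK and URE-GMP were both at least 2, and when URE was at least 3-fold over WT in both cell types. The mirrored choice asked for WT levels of at least 2 and for WT at least 3-fold over URE, and kept the limit on the WT ratio. It gave 6977 regions lost in both cell types, or 10.25 lost regions for each newly open one. The WT ratio bounded the low groups of the newly open regions but the high groups of the lost ones, so these counts rest on unlike limits.

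Accessibility was measured by ATAC-seq, in which a transposase inserts adapters into open DNA, in sorted mouse bone marrow cells. WT-LSK and WT-GMP came from wild type mice, and URE-LSK and URE-GMP came from UREd/d mice, which carry the enhancer deletion on both alleles. Each group held 3 libraries, 1 per mouse. All mice were young adult littermates on a C57BL/6 background. The LSK were sorted as Lin-, Sca-1+ and c-Kit+, and the GMP as Lin-, Sca-1-, c-Kit+ and CD16/32+. The deletion is carried by the whole animal and not by the sorted cells alone, so an effect within these cells and one of an earlier stage or of the marrow around them cannot be told apart. These are bulk libraries, in which more cells with an open region and a wider opening in each cell cannot be told apart.

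PU.1, the product of Spi1, is an ETS family factor that sets the balance of myeloid and lymphoid fates and opens chromatin at its sites. It works beside RUNX1, C/EBP factors and AP-1 in myeloid cells. RUNX factors are needed for definitive hematopoiesis, C/EBP factors for granulocyte development, and AP-1 factors are dimers of the basic leucine zipper type to which the small MAF proteins are related.

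The totals of the libraries were between 23072701 and 62204826 counts. The region over the deleted element had 42.1 ± 3.59 CPM (SD, n = 3, as for every ± value) in WT-LSK, against 0.0598 ± 0.0695 CPM in URE-LSK. In GMP the values were 44.6 ± 1.61 CPM for WT, against 0.0288 ± 0.0250 CPM for URE, so every group matched its genotype label. Regions within 5 kb of the start sites of LSK markers summed to between 519 and 570 CPM in both LSK groups and to between 351 and 461 CPM in both GMP groups. GMP markers summed to between 245 and 329 CPM in LSK and to at least 845 CPM in every GMP library. Ly6a and Fcgr3, which encode 2 of the sorting antigens, had no region there. The levels of markers of other cells also moved with genotype. The 4 monocyte and macrophage markers summed to between 124 and 131 CPM in WT-GMP and between 59.7 and 77.1 CPM in URE-GMP, and to between 89.1 and 89.7 CPM in WT-LSK, against between 47.4 and 53.7 CPM in URE-LSK. The 5 neutrophil markers had between 28.6 and 53.6 CPM in WT-GMP and between 79.1 and 97.9 CPM in URE-GMP, but between 15.1 and 19.2 CPM in WT-LSK, against between 11 and 13.5 CPM in URE-LSK. Megakaryocyte markers had between 208 and 248 CPM in WT-LSK, against between 264 and 271 CPM in URE-LSK, and T cell markers between 57.7 and 64.3 and between 69.5 and 74.0 CPM. In GMP, T cell markers had between 55.7 and 57.1 CPM in WT and between 67.0 and 70.1 CPM in URE. The regions at the 1 mast cell and basophil marker that had any summed to between 7.47 and 10.5 CPM in WT-LSK, against between 13.5 and 21.2 CPM in URE-LSK, while the ranges overlapped in GMP. Erythroid markers had between 73.5 and 82.7 CPM in WT-GMP, against between 67.5 and 70.1 CPM in URE-GMP, and overlapped in LSK. B cell markers lay between 35.5 and 49.0 CPM over all libraries. Cd8a, Ms4a2, Fcer1a and Prss34 had no region. No region at a marker was a member, and the part of these cells in the newly open regions was not tested.

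To show what the DNA of these regions looks like, the central 200 bases of 10 of them follow, read from GRCm38 on the + strand. Capitals mark matches to the RUNX motif AACCACA, the AP-1 motif TGANTCA, the MAF motif GCTGANTCA, which contains the AP-1 motif, and the C/EBP motif TTGCNNAA, on either strand. They are shown because the shares of these motifs are compared below. The first 8 are the first regions, in the order of the naming rule, that lay outside exons and held a RUNX or AP-1 match in these bases, and the last 2 were the next to hold a MAF match. The sequence and the assembly are those of RefSeq.
Apba2 (intron, chr7:64732429-64732628, +): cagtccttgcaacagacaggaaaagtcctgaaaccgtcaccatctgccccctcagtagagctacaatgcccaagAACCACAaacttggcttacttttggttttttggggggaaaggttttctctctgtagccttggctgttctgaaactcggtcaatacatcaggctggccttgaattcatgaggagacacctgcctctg
Mafk (intron, chr5:139795190-139795389, +): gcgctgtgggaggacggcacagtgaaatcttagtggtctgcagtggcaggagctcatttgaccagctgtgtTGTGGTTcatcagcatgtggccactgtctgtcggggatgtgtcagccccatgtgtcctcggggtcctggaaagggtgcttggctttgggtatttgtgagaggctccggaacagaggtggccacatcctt
Nrp2 (intergenic, chr1:62875809-62876008, +): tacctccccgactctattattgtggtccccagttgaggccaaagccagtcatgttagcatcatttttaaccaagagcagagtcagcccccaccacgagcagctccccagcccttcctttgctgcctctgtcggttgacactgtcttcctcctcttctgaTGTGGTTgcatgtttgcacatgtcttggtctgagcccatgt
Tra2a (intergenic, chr6:49282193-49282392, +): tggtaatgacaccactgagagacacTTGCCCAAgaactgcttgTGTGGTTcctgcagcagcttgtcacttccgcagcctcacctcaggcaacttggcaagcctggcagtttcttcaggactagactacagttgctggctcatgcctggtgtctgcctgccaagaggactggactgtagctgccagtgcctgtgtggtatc
Ptprt (intron, chr2:161560416-161560615, +): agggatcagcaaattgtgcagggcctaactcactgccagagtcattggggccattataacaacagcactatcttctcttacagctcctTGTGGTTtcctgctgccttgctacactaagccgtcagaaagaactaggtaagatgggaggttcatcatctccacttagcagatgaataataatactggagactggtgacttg
Pcdh10 (intergenic, chr3:43945846-43946045, +): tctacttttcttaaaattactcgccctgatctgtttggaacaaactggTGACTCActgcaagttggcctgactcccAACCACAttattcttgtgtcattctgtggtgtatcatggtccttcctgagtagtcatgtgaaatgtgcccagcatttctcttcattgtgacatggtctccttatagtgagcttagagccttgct
Pik3c2g (intron, chr6:139736129-139736328, +): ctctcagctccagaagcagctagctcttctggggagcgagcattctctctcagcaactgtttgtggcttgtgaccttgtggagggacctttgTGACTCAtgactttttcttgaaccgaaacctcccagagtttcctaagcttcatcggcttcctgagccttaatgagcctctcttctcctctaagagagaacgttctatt
Ednra (intron, chr8:77749319-77749518, +): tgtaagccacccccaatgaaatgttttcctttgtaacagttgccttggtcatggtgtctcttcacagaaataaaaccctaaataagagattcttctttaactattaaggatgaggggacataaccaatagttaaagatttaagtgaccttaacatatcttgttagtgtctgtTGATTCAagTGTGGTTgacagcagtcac
Chd3 (intergenic, chr11:69375738-69375937, +): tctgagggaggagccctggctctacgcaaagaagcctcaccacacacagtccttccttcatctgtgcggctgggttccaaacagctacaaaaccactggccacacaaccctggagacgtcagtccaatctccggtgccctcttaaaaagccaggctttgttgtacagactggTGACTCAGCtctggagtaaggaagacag
Fbxo31 (intron, chr8:121568454-121568653, +): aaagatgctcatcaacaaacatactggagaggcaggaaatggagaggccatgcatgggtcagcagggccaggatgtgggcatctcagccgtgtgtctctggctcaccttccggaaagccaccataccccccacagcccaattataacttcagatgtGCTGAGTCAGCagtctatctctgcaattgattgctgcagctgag
In Pcdh10 the AP-1 match at bases 49 to 55 was followed by a RUNX match at bases 77 to 83, and in Ednra the AP-1 match at bases 173 to 179 and the RUNX match at bases 182 to 188 were 2 bases apart. In Tra2a a C/EBP match at bases 26 to 33 preceded a RUNX match at bases 44 to 50. In Fbxo31 a MAF match was present on each strand around the same AP-1 match. A match is a stretch of letters and does not show that a factor was bound.

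Most of these regions were almost closed in WT and reached a moderate level in URE. Their median was 0.639 CPM in WT-LSK, against 4.78 CPM in URE-LSK. In GMP it was 0.605 CPM for WT, against 4.58 CPM for URE. The median over all regions lay between 2.553 and 3.045 CPM in the 4 groups. In both cell types of WT mice, 216 members were under 0.5 CPM, and 409 were under 1 CPM. Not all were closed in WT, since the choice set no upper limit there. In both WT-LSK and WT-GMP, 18 members (2.64%) lay above the median of all regions, and in at least 1 of them 50 members (7.34%) did. A WT group was at 5 CPM or more in 14 members. In URE, 52 members were at 10 CPM or more in both cell types and 9 were at 20 CPM or more.

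By library, members took 0.0673, 0.0665 and 0.0705% of all counts in WT-LSK replicates 1, 2 and 3, and 0.445, 0.374 and 0.514% in URE-LSK. In GMP the shares were 0.0624, 0.0687 and 0.0716% in WT and 0.419, 0.381 and 0.498% in URE. The WT and URE shares did not overlap, which follows from the choice of the regions. In both cell types URE replicate 2 was the lowest and URE replicate 3 the highest of its group. The labels do not say whether same-numbered libraries came from 1 mouse. Within a group the median SD, as a percentage of the mean, was 30.0% for WT and 21.3% for URE in LSK, and 30.3% and 17.4% in GMP.

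**Figure D1:**
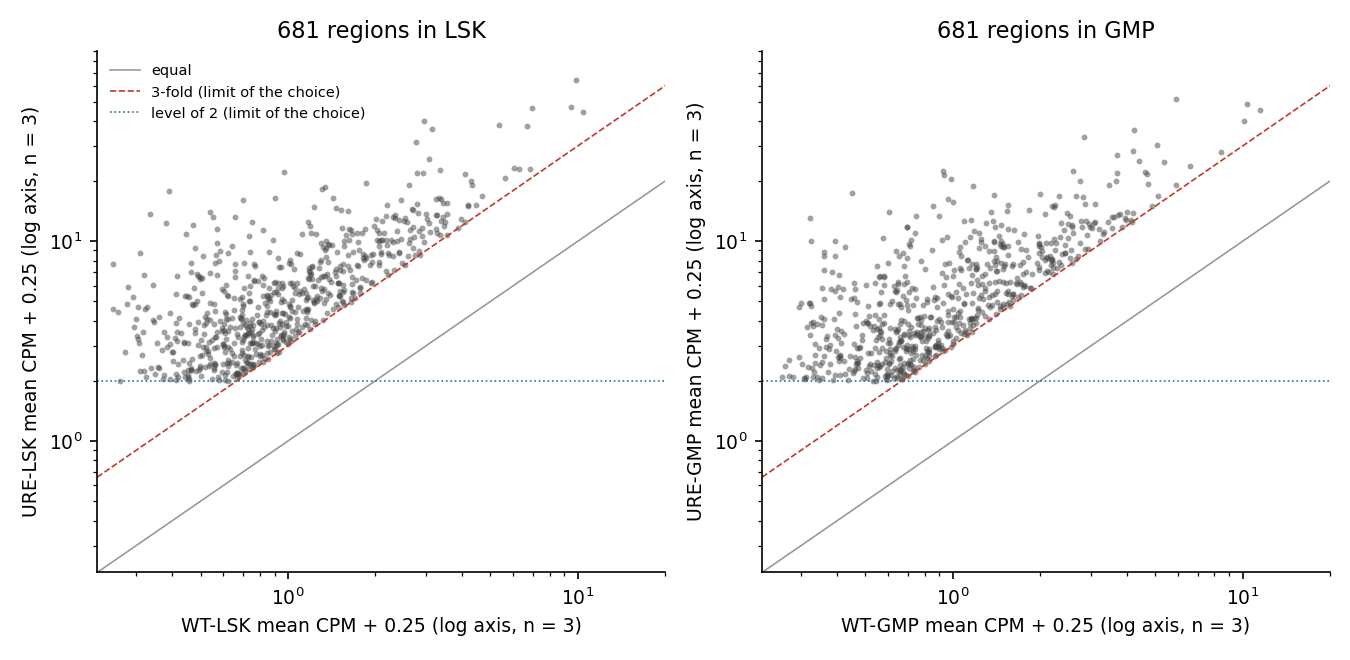
Mean CPM plus 0.25 (log axes) of the 681 regions in WT (x axis) and URE (y axis), for LSK (left) and GMP (right), each point the mean of 3 libraries. The dashed line and the dotted line are the 3-fold limit and the level of 2 used to choose the regions, so the empty area below them is set by the choice. A reader should see that points crowd near both limits, at a median of 4.78 CPM in URE-LSK and 4.58 CPM in URE-GMP.

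Folds are given between means with 0.25 added, which understates the change of regions near 0. The values that chose the members had a median fold of 4.97 in LSK and 4.89 in GMP, with a highest value of 45.7 in LSK and 40.3 in GMP. The fold was over 10 for 85 members in LSK, 79 in GMP and 35 in both. Every URE library lay above every WT library for 680 members in LSK and 681 in GMP, where the same held for 28.1% and 27.5% of all regions. The exception was a region near Sod3 (chr5:52366707-52366994), where 1 URE-LSK library had 0.25 CPM and the highest WT-LSK library 0.811 CPM, with means of 3.05 and 0.508 CPM. edgeR's quasi-likelihood test called all 681 members higher in URE-LSK, where 13.6% of all regions were called, and all 681 higher in URE-GMP, where 15.6% were. Because these contrasts chose the regions, the counts are a description. Applying the rule with 1 library left out gave between 582 and 765 regions. Read in the library that was left out, between 76.7 and 97.5% of them had a fold of at least 3 and between 99.8 and 100% had a fold over 1. The lowest share was in URE-LSK replicate 2. The other libraries of both genotypes chose these regions, so high shares were partly set by the choice and are a description.

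At the limits, neighbouring regions had nearly the same values. The member with the smallest fold, near Adamts3, was at 3.0002 in LSK, and a region near Fancc stayed outside at 2.999 in GMP. The member with the lowest URE level, in an intron of Itga9, had 2.0014 CPM with 0.25 added, against 1.9968 for a region near Gsap. On the WT ratio the outermost members, near 1700021F07Rik and Lzic, had 1.99 and 0.502. The nearest excluded regions, near Stard3nl and Cadps, had 2.01 and 0.4995. Between folds of 2.8 and 3 lay 112 regions that met the other limits, and between 3 and 3.2 lay 87 members.

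The strongest members were spread over genes of unlike function, and several were already open in WT. Auts2, Mafk and Col13a1 had between 9.21 and 11.2 CPM in WT-LSK and WT-GMP, so that they became more open and not newly open. At the promoter of Auts2, which encodes a chromatin-associated protein best known from neurons (chr5:131537065-131539033, UTR), the WT-LSK libraries had 10.3, 9.06 and 9.59 CPM and the URE-LSK libraries 73.4, 53.7 and 64.0 CPM. In GMP they had 12.3, 8.74 and 8.63 CPM in WT and 43.3, 32.9 and 43.9 CPM in URE. This was the member with the largest summed level in URE. No library of one genotype reached the other, as in nearly all members by the choice.

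Apba2, which encodes a neuronal adaptor protein, had 3 members, among them the second strongest of all (chr7:64731884-64733174, intron), whose sequence is the first shown above. It had 6.38, 6.46 and 7.34 CPM in WT-LSK, against 45.3, 38.9 and 55.1 CPM in URE-LSK. In WT-GMP it had 4.58, 5.90 and 6.50 CPM, and in URE-GMP 47.5, 45.7 and 60.5 CPM. The other intronic member of this gene (chr7:64633190-64633630) was higher in LSK, with 15.9 ± 4.64 CPM in URE-LSK and 3.95 ± 2.20 CPM in URE-GMP. The remaining member lay at another start site (chr7:64501496-64501744), with 7.15 ± 2 and 3.86 ± 0.378 CPM. Of the 10 regions assigned to Apba2, 3 were members.

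Mafk encodes a small MAF protein, a partner of NF-E2 and of other basic leucine zipper factors. Its intronic member (chr5:139794801-139795780) had 11, 8.06 and 8.57 CPM in WT-LSK, against 51.4, 40.5 and 48.7 CPM in URE-LSK. In GMP it had 13.9, 11.2 and 8.56 CPM in WT and 45.9, 41.7 and 48.5 CPM in URE. The level in URE was nearly the same in both cell types, with a log2 difference of 0.02 (SE 0.15, adjusted p = 0.924).

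The intergenic region 18 kb from Tra2a (chr6:49282041-49282546), a splicing factor gene, held RUNX, AP-1, MAF and C/EBP matches in its central 300 bases. It had 1.99, 2.82 and 2.79 CPM in WT-LSK, against 30.6, 29.3 and 33.4 CPM in URE-LSK. In GMP it had 2.52, 2.62 and 2.65 CPM in WT and 31.8, 29.9 and 37.3 CPM in URE. Its folds of 11.3 and 11.7 were near equal in the cell types, and its libraries within each group were close together.

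Of the other strong members, the intronic region of Col13a1, a membrane collagen gene, had 10.2 ± 0.777 CPM in WT-LSK, against 44.3 ± 3.49 CPM in URE-LSK, and 10.1 ± 0.607 and 48.6 ± 5.85 CPM in GMP. A region in an exon of a long non-coding RNA gene on chromosome 8 (chr8:49946688-49947510), 1102737 bp from the nearest protein-coding start site, that of Tenm3, had 2.71 ± 1.86 and 39.7 ± 2.35 CPM in LSK. In GMP it had 3.93 ± 1.89 and 28.0 ± 2.20 CPM. WT replicate 2 stood above the other WT libraries there in both cell types, at 4.85 and 6.12 CPM. An intergenic region 172 kb from Nrp2, the gene of a semaphorin and VEGF co-receptor, varied most among the URE-GMP libraries of these 8, with 23.4, 17.6 and 39.6 CPM.

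**Figure D2:**
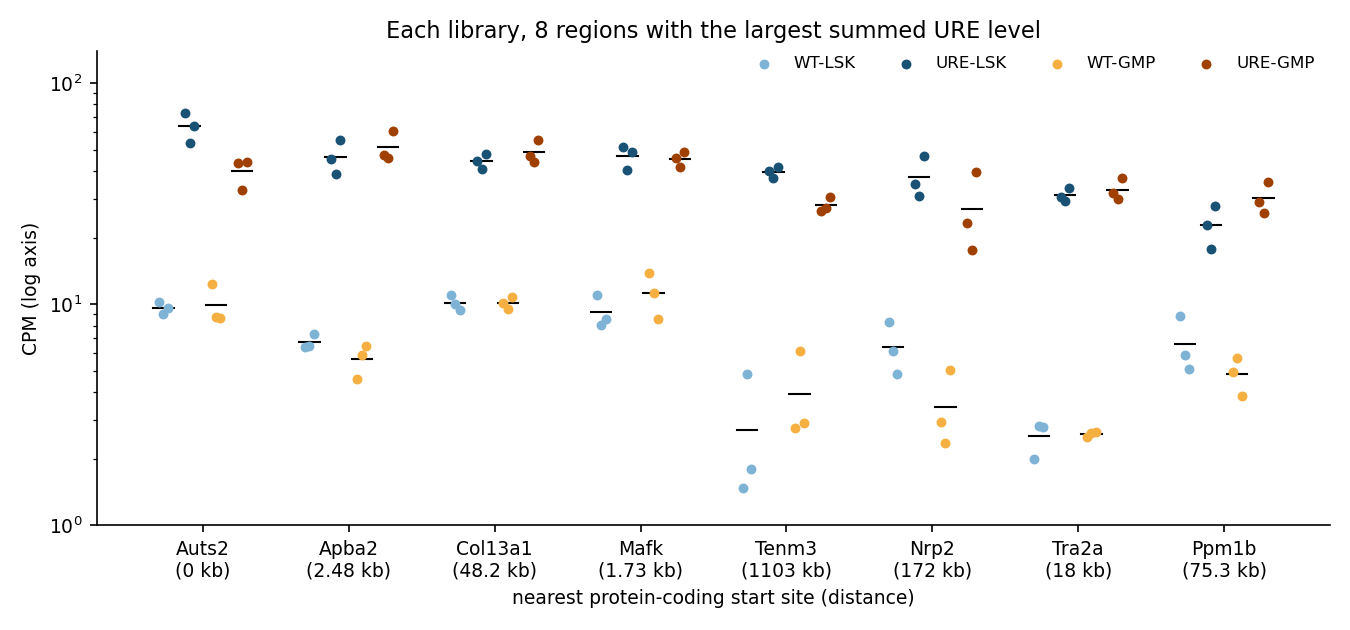
CPM (log axis) in each of the 12 libraries for the 8 members with the largest summed URE level, named by the nearest protein-coding start site with its distance. Points are libraries and black bars are group means (n = 3). In each of the 8 regions the URE points of a cell type lie above all its WT points, which the choice of the regions favours. At Auts2, WT-LSK lies between 9.06 and 10.3 CPM and URE-LSK between 53.7 and 73.4 CPM.

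Other members started from next to no signal. Among the 8 with the largest fold in the cell type where it was smaller, the coding exon of Olfr1264, an odorant receptor gene (chr2:90021337-90021821), had at most 3 counts in any WT-LSK library and at most 4 in any WT-GMP library. Its URE libraries had 5.83, 3.36 and 7.78 CPM in LSK and 7.46, 7.59 and 9.66 CPM in GMP. The region in an intron of Unc5d, a netrin receptor gene (chr8:29122713-29122999), had at most 1 count in WT-LSK and 4 in WT-GMP. In URE it had 4.45, 3.44 and 4.64 CPM in LSK and 4.14, 2.99 and 6.30 CPM in GMP. On chromosome 3, 1432284 bp from the nearest protein-coding start site, that of Pcdh10, another member had at most 3 and 5 counts in WT, and 4.99 ± 1.61 and 8.61 ± 2.12 CPM in URE-LSK and URE-GMP.

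Intronic regions of Ptprt, a receptor phosphatase gene, and Daam1, which encodes a formin, also belong to these 8. In WT and URE, Ptprt had 0.129 ± 0.115 and 12.1 ± 3.94 CPM in LSK and 0.111 ± 0.0789 and 6.94 ± 3.10 CPM in GMP. Daam1 had 0.505 ± 0.154 and 12.2 ± 4.30 CPM in LSK and 0.740 ± 0.254 and 20.3 ± 2.20 CPM in GMP. Intergenic regions nearest to Rpl10l, Dok5 and Pdcd6ip, all over 200 kb away, complete the 8, with between 4.42 and 22.2 CPM in the URE groups. Among all members, 13 had 3 counts or fewer in each WT-LSK library and 8 had 3 counts or fewer in each WT-GMP library. In the shallowest WT library of each cell type, 1 count was 0.0433 CPM in LSK and 0.0413 CPM in GMP.

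The newly open regions lay mostly away from promoters. Of the 681, 45 (6.61%) lay within 500 bp of an annotated start site, against 18.9% of all regions, and 31 lay at a protein-coding one. The share in regions lost in both cell types was 7.57%. The median distance to a protein-coding start site was 22256 bp for members, 10856 bp for all regions, 15644 bp for regions outside promoters and 15277 bp for lost regions. Over 100 kb from a start site lay 24.5% of members, against 10.3% of all regions, 12.1% of those outside promoters and 11.8% of lost ones. By location, 359 members were intronic, 244 intergenic, 32 in coding exons, 26 in UTRs and 20 in non-coding exons. In GC content the members resembled the rest, with a median of 49.3 against 49.7%. At least 50% of the window was soft-masked as repeats in 3.82% of members and in 5.20% of all regions. Members were slightly wider, with a median of 368 bp against 322 bp.

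Of the 5 strongest members at protein-coding start sites, Auts2 was described above. The region at a start site of Pik3c2g, a class II phosphoinositide kinase gene (chr6:139735791-139736667), had 6.05 ± 0.247 and 22.6 ± 0.393 CPM in WT-LSK and URE-LSK, and 3.09 ± 0.25 and 10.8 ± 1.77 CPM in GMP. At the start of Kcnn2, which encodes a calcium-activated potassium channel, the values were 3.17 ± 0.656 and 15.3 ± 1.34 CPM in LSK and 1.73 ± 0.182 and 9.52 ± 1.71 CPM in GMP. Ceacam16, a cell adhesion family gene, had 1.89 ± 0.393 and 10.7 ± 1.18 CPM, and 3.72 ± 0.602 and 12.5 ± 0.750 CPM. The fifth, at Ednra, is described with the step between cell types.

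One member lay in the gene whose enhancer was deleted. The region at chr2:91115073-91115407 covered the last coding exon of Spi1 (coding bases 91115075 to 91115391), beginning 2 bases before it and ending 16 bases after its coding part. It had 2.24, 1.43 and 1.68 CPM in WT-LSK, against 10.7, 10.2 and 12.5 CPM in URE-LSK. In GMP it had 3.80, 3.43 and 3.33 CPM in WT and 13.6, 12.8 and 13.7 CPM in URE. Its folds were 5.61 in LSK and 3.62 in GMP, and no libraries of the genotypes overlapped, which the choice favours. Of the 14 regions over Spi1, a second one over a coding exon (chr2:91113284-91113745) met the folds as well, with 1.34 ± 0.349 and 5.89 ± 0.746 CPM in LSK and 4.09 ± 1.29 and 14.1 ± 0.321 CPM in GMP. It was not a member, since its WT ratio was 2.73. No other region over Spi1 met the folds in both cell types. Whether opened chromatin gave the signal over these coding exons was not tested. The start site nearest to the member is that of Mybpc3, the neighbouring gene. The remaining region over a coding exon (chr2:91096454-91097341) had values in the other direction, 37.6 ± 1.38 and 5.57 ± 2.8 CPM in LSK and 36.4 ± 2.71 and 23.3 ± 3.54 CPM in GMP.

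The sequence of the regions was not used to choose them, and 36 motifs were searched in the central 300 bases of every region. RUNX matches stood in 206 members (30.2%), against 14.4% of all regions, 16.1% of those outside promoters and 12.4% of the regions lost in both cell types. AP-1 matches were in 155 members (22.8%), against 12.1% of all regions and 10% of lost ones. The MAF motif was in 58 members (8.52%), against 3.33% and 1.92%. AP-1 without MAF was in 97 members (14.2%), against 8.78% of all regions, so the longer motif did not make up the whole of the AP-1 share. RUNX, AP-1 or both were in 321 members (47.1%), against 24.7% of all regions.

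Further motifs were more frequent by less. The KLF motif CCACACCC was in 6.17% of members against 3.59% of all regions, the MEIS motif TGACAG in 32.3% against 23.2%, and the E-box CAGATG, read by TAL1 and its partners, in 31.6% against 23.1%. The C/EBP motif was in 21% of members, 16.4% of all regions and 18.1% of regions outside promoters. The GATA motif AGATAA had nearly the same share in members and in all regions, at 13.4 and 12.9%.

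Motifs of PU.1 itself were rare. The PU.1 motif GAGGAAGT was in 15 members (2.20%), against 8.70% of all regions, 9.63% of those outside promoters and 21.9% of the regions lost in both cell types. The composite motif GGAANNGAA of PU.1 with IRF4 or IRF8 was in 5.14% of members, 10.9% of all regions and 16.5% of lost ones. The motif GAAANNGAA of the IRF factors was in 7.34, 10.8 and 13.7%. The motif of CTCF, the insulator protein, was in 2 members (0.294%), against 3.75% of all regions and 0.0717% of lost ones. The ETS motif CAGGAAGT of ERG and FLI1, which shares its core with that of PU.1, was in 9.54% of members and 7.77% of all regions.

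**Figure D3:**
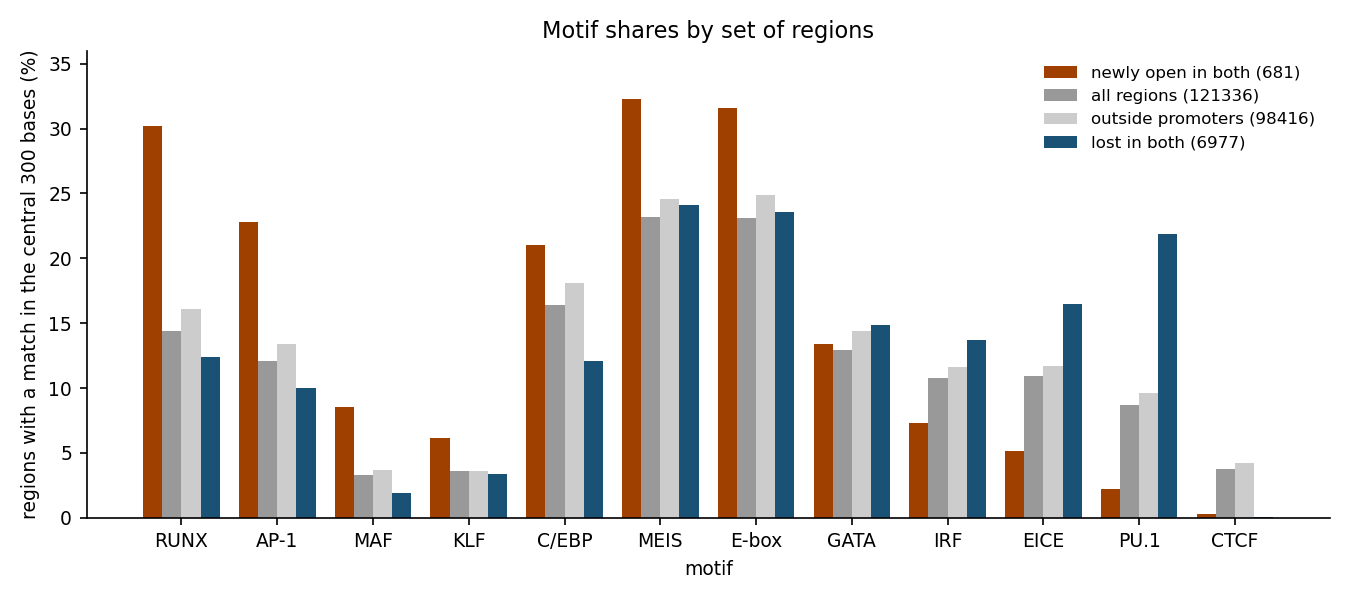
Share of regions (y axis, percent) with at least 1 match to each of 12 motifs (x axis) in their central 300 bases, for the newly open regions, all regions, regions outside promoters and regions lost in both cell types. E-box stands for CAGATG and EICE for the composite of PU.1 with IRF4 or IRF8. For RUNX, AP-1 and MAF the newly open regions have the tallest bar of each motif, at 30.2, 22.8 and 8.52%. They also have it for KLF, C/EBP, MEIS and the E-box. PU.1 is at 2.20% in newly open regions and at 21.9% in lost regions.

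RUNX and AP-1 matches crowded at the centres of the newly open regions. In the 60 bp on either side of the centre, members had 1.91 and 1.57 RUNX matches per kb of sequence, regions outside promoters 0.857 and 0.869, and lost regions 0.592 and 0.585. Between 540 and 600 bp to either side of the centre the members had 0.147 and 0.416. For AP-1 the central values were 1.03 and 0.954 in members, 0.612 and 0.636 in regions outside promoters, and 0.404 and 0.408 in lost regions. PU.1 matches showed the opposite order, with 0.0734 and 0.0245 per kb at the centre of members and 1.36 and 1.36 in lost regions. C/EBP matches had 0.832 and 1.03 per kb at the centre of members, close to the 0.885 and 0.882 of regions outside promoters.

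**Figure D4:**
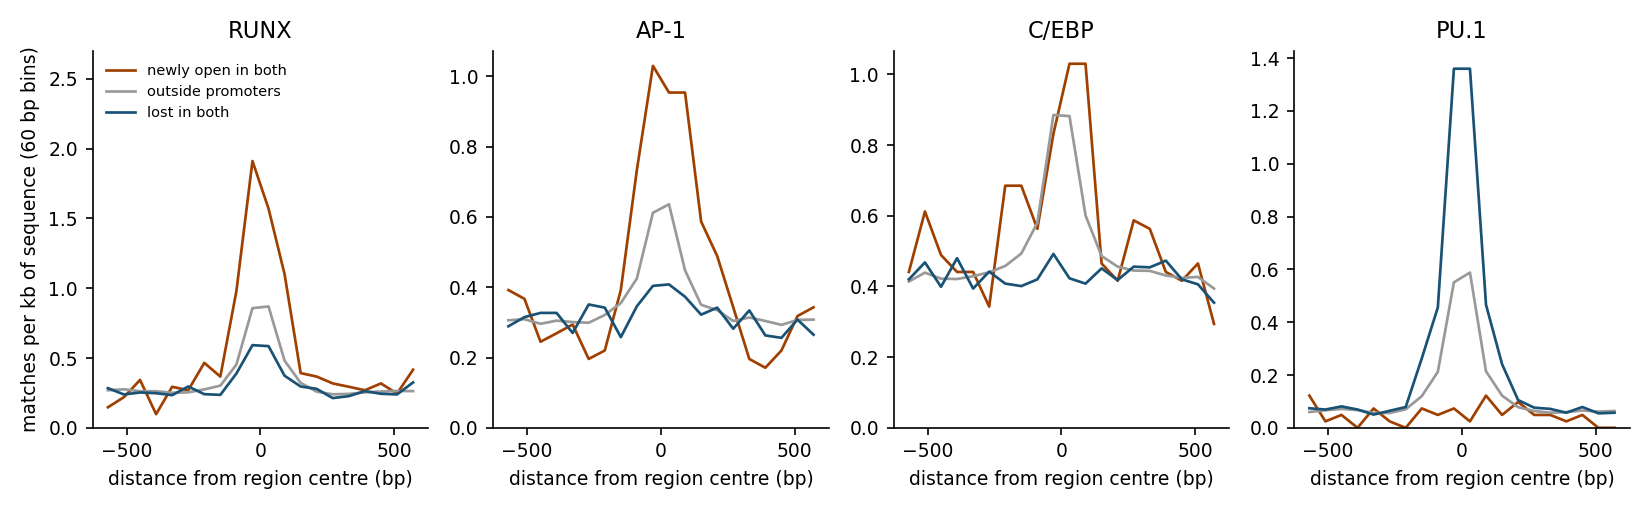
Matches per kb of sequence (y axis, 60 bp bins) against the distance from the region centre (x axis, bp) for 4 motifs, in newly open regions, regions outside promoters and regions lost in both cell types. RUNX in newly open regions peaks at 1.91 per kb beside the centre, and PU.1 peaks at 1.36 per kb in lost regions.

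The RUNX and AP-1 motifs were found together in 40 members (5.87%), where the product of their shares is 6.89%. RUNX and C/EBP were together in 48 (7.05%, product 6.35%), and RUNX and the E-box CAGATG in 68 (9.99%, product 9.55%). With members divided into quartiles of their mean URE level, RUNX was in 29.8, 33.5, 26.5 and 31.2% from the lowest to the highest quartile. AP-1 was in 25.7, 23.5, 18.2 and 23.5%.

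The step from LSK to GMP within URE mice was the 1 contrast that the choice did not use directly. The choice still shaped it, since the limits on the URE levels, on the WT ratio and on both folds bear on how far URE-GMP and URE-LSK can differ. Over the members, the log2 difference of URE-GMP minus URE-LSK had a median of 0.04 and quartiles of -0.58 and 0.61. Over all regions the median was 0.03, with quartiles of -0.83 and 1.29. Called by edgeR's quasi-likelihood test, at an adjusted p under 0.05 and a log2 fold change over 1, were 89 members (13.1%) higher in URE-GMP, where 27.6% of all regions were, and 90 (13.2%) higher in URE-LSK, where 21.6% were. These shares are partly set by the choice. Of the 47158 regions that met the limits on the URE levels and the WT ratio, 5.93% were called higher in URE-GMP and 7.32% higher in URE-LSK, so the members lay below all regions and above the regions under these limits. Nothing particular to the members is read from either comparison. The other 502 were not called, which does not show that they were equal. The URE libraries of the 2 cell types did not overlap in 86 of the 89, in 83 of the 90 and in 184 of the 502, or in 51.8% of the 681, against 73.8% of all regions. Over all regions the shares within the same calls were 95.2, 99.2 and 51.4%, where members had 96.6, 92.2 and 36.7%. Across members, the log2 levels of URE-LSK and URE-GMP had a Pearson r of 0.581, a description over 681 regions that share the same libraries and were chosen for high levels in both.

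**Figure D5:**
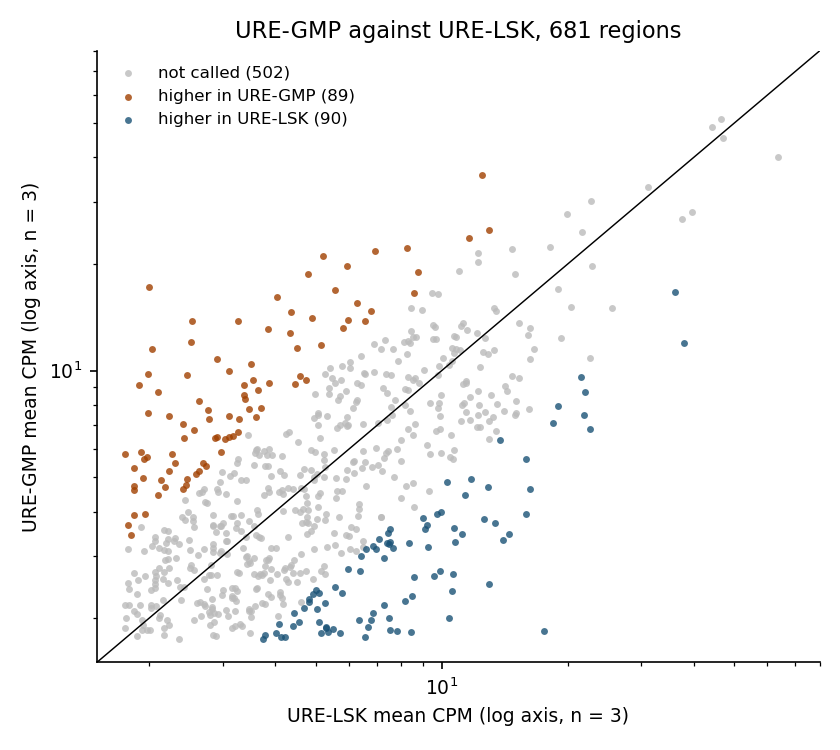
Mean CPM in URE-LSK (x axis) against URE-GMP (y axis) on log axes for the 681 regions, each the mean of 3 libraries, coloured by the edgeR call between them. The line marks equal levels. The 89 regions called higher in URE-GMP and the 90 called higher in URE-LSK lie on either side of the 502 not called.

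The members with the smallest p on the GMP side included a pair at Ednra, the endothelin receptor type A gene, which had 3 members, all called higher in URE-GMP. At its promoter (chr8:77723425-77724634), URE-LSK had 11.6, 12 and 13.9 CPM and URE-GMP 36.4, 35.8 and 34.7 CPM, while WT libraries had between 2.79 and 5.28 CPM. The log2 difference was 1.58 (SE 0.17, adjusted p = 6.13e-07). A region 24.6 kb from its start, in an intron of a non-coding transcript (chr8:77749058-77749780), whose sequence is shown above, had 1.79, 1.78 and 2.43 CPM in URE-LSK and 16.5, 15.5 and 19.6 CPM in URE-GMP, the widest gap of all members on this side (log2 difference 3.17, SE 0.24, adjusted p = 2.45e-08). The third (chr8:77713630-77714026) had 2.23 ± 0.371 and 7.46 ± 0.936 CPM.

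Also on the GMP side, an intergenic region 24.7 kb from Glrx5, which serves iron-sulfur cluster assembly, had 4.05 ± 1.09 CPM in URE-LSK and 16.1 ± 1.33 CPM in URE-GMP (log2 difference 2.06, SE 0.21, adjusted p = 3.07e-07). One 36.3 kb from Bcas1 had 4.78 ± 1.82 and 18.7 ± 2.07 CPM (log2 difference 2.04, SE 0.22, adjusted p = 7.86e-07).

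On the LSK side, an intergenic region 194 kb from Car10 (chr11:92904060-92904528) had the widest gap, with 20.7, 13.3 and 18.6 CPM in URE-LSK and 1.81, 1.33 and 2.37 CPM in URE-GMP (log2 difference -3.20, SE 0.24, adjusted p = 2.45e-08). In WT it had at most 8 counts in LSK and at most 4 in GMP. Mmp9 encodes gelatinase B, a protein of neutrophil granules. The intergenic region 9.11 kb from its start (chr2:164930978-164931670) had 1.01, 1.17 and 1.49 CPM in WT-LSK, and 14.8, 13.4 and 15.2 CPM in URE-LSK. In URE-GMP it had 3.26, 3.52 and 3.59 CPM (-2.0, SE 0.21, adjusted p = 6.21e-07). The remaining 3 of the 5 smallest p were a UTR region near Rsph14 (-1.94, SE 0.19, adjusted p = 3.02e-07) and intergenic regions near Pfdn4 (-2.02, SE 0.24, adjusted p = 2.28e-06) and 870 kb from Klhl29 (-2.09, SE 0.26, adjusted p = 2.80e-06). All were higher in 3 of 3 URE-LSK libraries than in any URE-GMP library.

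The motif shares were read in each of these sets. C/EBP matches were in 38.2% of the members higher in URE-GMP, in 11.1% of those higher in URE-LSK and in 19.7% of those not called. Over all regions, the shares were 31.0% of those called higher in URE-GMP and 10% of those called higher in URE-LSK. RUNX was in 36, 32.2 and 28.9% of the members higher in URE-GMP, higher in URE-LSK and not called, against 14.1 and 20.7% of all regions called in the same directions. IRF matches were in 16.9, 6.67 and 5.78% of these members, against 11.2 and 12.4% of all regions called. The ETS motif CAGGAAGT was in 13.5, 21.1 and 6.77%, against 8.66 and 8.77%. AP-1 was in 14.6, 18.9 and 24.9%, highest in the members not called, against 12.5 and 15.5%. These are shares of 89, 90 and 502 regions, given without a test.

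By chromosome, members made up between 0.295% of the regions on the X and 1.01% on chromosome 8 (64 of 6309), with 0.863% on chromosome 12 (44 of 5097) and none of 4 regions on the Y. Lost regions made up 4.77% on chromosome 8, the lowest share of any autosome, and 5.36% on chromosome 12. Members were mostly alone. With gaps of up to 50 kb, 44 groups of neighbours held 94 members, and 6 of the groups held 3. These lay at Sox11, Chd6, Olfr522 and Cd163l1, Ednra, Fbxo31, and Zcchc14 and Jph3. Near Chd6 the 3 members were the only regions of the table between the first and the last of them. At Fbxo31, which encodes an F-box protein, 3 of the 5 regions in the span were members (chr8:121553899-121573693), all 3 with an AP-1 match and 2 with a MAF match. They had 6.88 ± 0.790, 7.25 ± 0.196 and 3.66 ± 0.388 CPM in URE-LSK and 9.88 ± 2.12, 8.92 ± 0.511 and 5.79 ± 0.581 CPM in URE-GMP, and at most 3.32 CPM in any WT library.

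Of the members, 514 lay within 100 kb of a protein-coding start site, nearest to 467 genes, and they made up 0.472% of the regions there. By nearest start site within 100 kb, no gene had more than 3, while 4 members over 100 kb from its start lay in introns of Cdh13, a cadherin gene, and 4 others, also over 100 kb away, were nearest to Chd6. Genes with 3 included Apba2, Ednra and Fbxo31, and Itga9, the integrin alpha 9 gene, with 3 intronic members between 1.75 and 4.60 CPM in the URE groups. Itga9 had 60 regions in all. Of the genes with 2 members, Tha1, Trat1 and Gm5485 had the largest summed URE levels. The stronger one near Trat1, which encodes an adaptor of the T cell receptor, had 6.29 ± 3.36 CPM in URE-LSK and 15.5 ± 3.75 CPM in URE-GMP, and replicate 3 was the highest in both, at 10.1 and 19.9 CPM. Near Gm5485 both members were higher in URE-LSK, the stronger with 21.8 ± 2.95 CPM against 7.50 ± 2.38 CPM in URE-GMP (log2 difference -1.48, SE 0.24, adjusted p = 4.43e-05).

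Lists of genes that define blood lineages held between 0 and 4 members each, to be read against the 0.472% of all regions within 100 kb. Near stem cell factors there was 1 member among 783 regions, where that share would give 3.70, in an intron of Runx1 (chr16:92608060-92608919), which had 2.63, 2.04 and 3.13 CPM in WT-LSK, against 7.80, 8.20 and 8.97 CPM in URE-LSK. In GMP it had 2.48, 2.49 and 2.53 CPM in WT and 9.56, 9.28 and 9.98 CPM in URE. The groups were apart, which the choice favours, and its fold of 3.01 in LSK was just over the limit. Runx1 encodes the RUNX factor of blood stem cells. This region held AP-1 and C/EBP matches and no RUNX match in its central 300 bases. No member was among the 331 regions near monocyte and macrophage genes, the 299 near erythroid genes, the 269 near mast cell and basophil genes, the 150 near genes of the Bcl2 family or the 639 near cytokine receptor genes. At the share of all regions these lists would hold between 0.708 and 3.02 members.

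Neutrophil genes had 3 members among 299 regions (1%). They included the one near Mmp9, higher in URE-LSK as given above, and one near Anxa1, the gene of an anti-inflammatory annexin, where URE-LSK had 3.33 ± 0.606 CPM and URE-GMP 1.90 ± 0.779 CPM. T lineage genes had 4 members among 528 regions (0.758%), 2 of them near Trat1, 1 near Lat and 1 in an intron of Lef1. This share was 0.23% with start sites within 50 kb and 0% with start sites of any gene type, below that of all regions in both cases. Lef1, a partner of beta-catenin in early lymphocytes (chr3:131178643-131179328), had 0.304 ± 0.246 CPM in WT-LSK, against 13 ± 1.57 CPM in URE-LSK, and 0.273 ± 0.157 and 2.50 ± 0.424 CPM in GMP. It was higher in URE-LSK, with a log2 difference of -2.32 (SE 0.29, adjusted p = 3.34e-06). It was also the 1 member among 306 regions near B lineage genes.

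Genes of natural killer and innate lymphoid cells had 2 members among 287 regions. One lay at Gzmc, a granzyme gene, with 7.48 ± 0.322 CPM in URE-LSK and 2.0 ± 0.655 CPM in URE-GMP. The other, nearest to Id2, an inhibitor of basic helix-loop-helix factors, had 3.61 ± 0.560 and 3.43 ± 0.711 CPM. Rap1 and integrin signalling had 5 members among 1028 regions (0.486%), 3 in Itga9, 1 near Sipa1l1, a Rap GTPase-activating protein gene, and 1 in Tiam1, which encodes an activator of Rac. Tiam1 had 5.79 ± 2.60 CPM in URE-LSK, where replicate 3 alone had 8.78 CPM, and 10.3 ± 2.34 CPM in URE-GMP. Megakaryocyte genes had 1 member, nearest to the thrombin receptor gene F2rl2 and inside an intron of Iqgap2, with 5.07 ± 0.903 and 7.51 ± 1.51 CPM. Autophagy and lysosome genes had 1 among 500, in Plekha5, at 2.65 ± 1.10 and 2.22 ± 0.107 CPM. Transcription factors of the RUNX, C/EBP, GATA, ETS and AP-1 families had 2 among 963, the members of Mafk and Runx1.

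The study defined 4 gene signatures on single-cell RNA-seq of Lin- c-Kit+ marrow cells from WT and URE mice. Members made up 0.388% of the 2838 regions nearest to genes of signature 1, 0.249% of 4020 for signature 2, 0.661% of 3478 for signature 3 and 0.815% of 6625 for signature 4, against 0.472% of all regions within 100 kb. With start sites of any gene type, signature 3 had 0.462%, below the 0.542% of all regions, and signature 4 had 0.699%. With start sites within 50 kb, signature 3 had 0.745% and signature 4 0.722%, against 0.456% of all regions. The 54 members of signature 4 included the strongest one of Apba2, one near Ppm1b, a protein phosphatase gene, with 22.7 ± 5.02 and 30.1 ± 5.04 CPM in URE-LSK and URE-GMP, and the promoter of Ednra. Among the 23 of signature 3 were a region near Tha1 with 11.6 ± 1.15 and 23.7 ± 2.65 CPM and an intron of Zmiz1, a PIAS-like coactivator gene, with 22.6 ± 2.97 and 6.86 ± 1.49 CPM. Among the 10 of signature 2 were an intron of Wdr41 with 15.9 ± 2.57 and 5.63 ± 0.390 CPM and a region nearest to Rogdi, within Glyr1, with 5.97 ± 1.71 and 13.9 ± 1.51 CPM. The 11 of signature 1 included regions near Coro2a, Slc16a11 and Chd3, with between 11.1 and 12.2 CPM in URE-LSK and between 8.78 and 12.8 CPM in URE-GMP. Chd3 encodes a helicase of the NuRD complex, and its member held the MAF match shown above.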

How the data were processed

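ATAC-seq libraries of sorted LSK and GMP from WT and UREd/d mice were used, 3 per group and 12 in all. Per the study's methods and the submitters' processing notes, the authors trimmed reads with cutadapt, aligned them to GRCm38 with Bowtie2, removed duplicates and non-primary chromosomes, called peaks per group with Genrich, merged them with bedtools and counted with featureCounts. The sources used here do not give whether a fragment or each of its ends was counted. The authors deposited raw counts for 121336 regions of 200 to 7997 bp, called on these same libraries, so a region open in 1 group only could enter the set. Starts were read as counted from 0 and are given from 1. Library totals lay between 23072701 and 62204826 counts, and 1 count was between 0.0161 and 0.0433 CPM. Counting intervals were not needed for means over replicates, whose SD covers counting error as well.

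Counts were scaled by the column sum to CPM for the choice of regions. The step from URE-LSK to URE-GMP was tested over all regions with edgeR 4.0.16 (R 4.3.3), with TMM factors, filterByExpr (0 regions removed) and the quasi-likelihood test on 12 libraries in 4 groups, two-sided. Calls needed a Benjamini-Hochberg adjusted p under 0.05 and an absolute log2 fold change over 1. On simulated data for this contrast, 190 of 200 regions changed 4-fold among 121336 were called, all 190 in the right direction, and 12 unchanged regions were called. The changed regions were drawn from those with higher counts, up and down in equal number, and all others were equal in every group. In the real contrast 27.6 and 21.6% of all regions were called, so the simulation does not give the error rate there. The libraries of a group differed beyond counting noise and came from separate mice per the study's methods.

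Motifs (36) were searched on both strands in the central 300 bases of each region, in the RefSeq sequence of GRCm38. Start sites and places came from GENCODE M21, and promoters were regions within 500 bp of a start site. Regions were assigned to the nearest protein-coding start site within 100 kb for 14 gene lists and the 4 signatures of the study. Markers were read within 5 kb of start sites. The newly open regions, the lists and the tests were chosen with earlier results of these data known. Named were the 8 regions with the largest summed URE level, the 8 with the largest smaller fold, the 5 strongest at protein-coding promoters, the 5 with the smallest p in each direction of the step, up to 3 per list and signature, the 8 genes with most regions, the neighbours of each limit, and regions within 200 kb of the Spi1 start. Some regions that this rule names are not reported here. Alternatives included DESeq2 1.42.0, other scalings and filters, and each library left out.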

Additional observations from a re-analysis of the deposited data

How the results depend on the processing

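The number of newly open regions followed the limits. It was 303 with 1 added in place of 0.25, 1664 at a fold of 2, 368 at a fold of 4, 302 at a URE level of 4 and 2245 with edgeR calls in place of the fold, against 681. It was 966 at a URE level of 1 and 1006 without the limit on the WT ratio. The regions themselves also changed. Of the 303, 245 were among the 681, as were 565 of the 675 with 0.1 added and 668 of the 841 with TMM-scaled CPM. With the level of 2 applied before 0.25 was added, a setting chosen after seeing the data, it was 605. Leaving out 1 library gave between 582 and 765. In the library left out, between 76.7 and 97.5% of them had a fold of at least 3, which the other libraries partly set. Without a fold threshold, 175 members were called higher in URE-GMP and 166 higher in URE-LSK, against 89 and 90. With glmTreat they were 37 and 38. Leaving out 1 library gave between 73 and 117, and between 69 and 112. In the main fit 27.6% of all regions were called higher in URE-GMP and 21.6% higher in URE-LSK. Shares of all regions under the other settings are not reported here, so these counts show only how the member calls moved. Of the 179 calls, between 75 and 179 were kept under 15 other settings and between 154 and 174 with a library left out, and 0 were called in the opposite direction. With a replicate block the counts were 88 and 88, and with the block and GC content offsets 84 and 93. For same-numbered URE-LSK and URE-GMP libraries, the log2 CPM of each region was taken as its deviation from the group mean. These deviations, not the levels themselves, correlated at 0.0616, 0.273 and 0.113. All were positive, so they do not show that the libraries were unpaired. The labels do not give pairs, and the main fit used the groups only. The shares near gene lists rested on few regions. Stem cell genes went from 0.128 to 0%, B lineage genes from 0.327 to 0%, and T lineage genes from 0.758 to 0.23 and 0%, with start sites within 50 kb and of any gene type. Over all regions the share was 0.542% with any gene type, against 0.472%. The ratios of 11 motifs kept their direction under the other windows and sets tried. The smallest depth, 23072701 counts, limits WT values, since 3 counts were 0.130 CPM there.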

Other observations

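To look beyond the motif list, the share of every word of 7 bases was counted, a step added after the values were seen. Of 1833 words held by at least 5% of members, the highest ratio to regions outside promoters was that of TAACCAC, a RUNX word, with 14.4% against 6.50%. Among the 15 highest were 8 words with the CCAC core of the RUNX motif, such as ACCACAA (20 against 10.4%), and the AP-1 word TGACTCA (20.1 against 10.1%). The word AGGATGT and its neighbour GGATGTG, which hold a GGAT in place of the GGAA core of PU.1, were also among them, with 14.2 against 7.14% and 13.4 against 7.08%. So was TGATGAC, with 8.96 against 4.12%. At the other end, the lowest ratio was that of GGGAAGT, in 2.35% of members against 11.1% of regions outside promoters and 24.7% of lost regions. GAGGAAG, the word of the PU.1 core, was in 8.22% against 24 and 45.1%. These words overlap one another and were picked for their ratios.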
